A study of Danio rerio with 12 samples.

Results

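The change from the 4- to 8-cell stage to the sphere stage was followed in zebrafish embryos that lacked smchd1 from both the egg and their own genome. Of the 12 libraries of the series, the 6 maternal-zygotic (MZ) smchd1 null libraries were compared with each other, 3 sphere libraries against 3 libraries of 4- to 8-cell embryos. All embryos were of the AB strain. MZ embryos came from homozygous parents of 1 line, lof1, in which CRISPR/Cas9 had put an out-of-frame mutation into the part of smchd1 that encodes the GHKL ATPase domain, and RNA was taken from whole embryos, 30 to 50 in a sample. The other 6 libraries were of wildtype (wt) embryos at the same stages, 3 at each, and serve as the background against which the MZ change was read.

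An early zebrafish embryo runs on RNA and protein that the mother put into the egg, and its own genome is almost silent during the first rapid cleavages. Through the midblastula transition the zygotic genome is switched on, with the egg-supplied factors Nanog, Pou5f3 and Sox19b acting as its main activators, while part of the maternal RNA is deadenylated and removed. The sphere stage lies just after that onset, and the comparison asks which transcripts appeared and which were lost when the egg came from a mother without a working Smchd1. In mammals this protein keeps genes silent on the inactive X chromosome and at imprinted clusters. In what follows, before means the 4- to 8-cell stage and after the sphere stage, and the 3 values of a stage are those of replicates 1, 2 and 3. Values are counts per 1000000 (CPM), made from expected counts after scaling of the libraries, and are relative to all poly-A RNA of a library. A fall in CPM can therefore be a loss of RNA, a shortening of its poly-A tail or a rise of the rest. A rise can in the same way be new RNA, a lengthened poly-A tail of RNA already present or a fall of the rest. In whole embryos fewer cells that hold a transcript and less of it per cell cannot be told apart.

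The transcript of smchd1 itself was scarce in all 6 MZ libraries. It stood at 7.72, 5.27 and 6.28 CPM before and 3.42, 4.04 and 3.49 CPM after, against 218 to 262 CPM and 182 to 290.2 CPM in the wt libraries of the same stages. The remaining transcript was lower at sphere in MZ embryos, and the stages did not overlap (log2 change -0.80, SE 0.22, adjusted p 0.012). The gene lrif1, which encodes a partner of SMCHD1 in mammals, rose from 3.37, 3.11 and 3.35 CPM before to 20.5, 27.5 and 17 CPM after, with no overlap (log2 change 2.72, SE 0.25, adjusted p 9.4e-06).

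The depth of the MZ libraries ranged from 7829742 (sphere replicate 1) to 20049669 expected counts. A ribosomal RNA gene, zgc:158463, took 3.98% of the counts of that library and 0.0163 to 0.398% in the other MZ libraries. It was left out of the main tests. Markers of blood, liver and later neurons and muscle were low, while the sums of the testis and ovarian follicle genes stood higher. The 9 blood genes summed to 3.95 ± 2.41 CPM at the 4- to 8-cell stage and 6.56 ± 0.58 CPM at sphere (SD, n = 3), and the 18 liver genes to 1.40 ± 0.28 and 2.35 ± 0.13 CPM, with 6 of them at 0 in all 6 libraries. The 13 genes of later neurons and muscle summed to 10.5 ± 1.21 and 12.9 ± 1.59 CPM, and the 9 testis genes to 137 ± 15.1 and 151 ± 31.4 CPM, with 1 of 7 tested called higher and 1 lower. The 14 ovarian follicle genes summed to 126 ± 17.9 and 88.0 ± 6.60 CPM, against means of 279 and 136 CPM in wt. Of these genes 2 were tested and neither passed. The highest of them, CYP11A1, made up most of the follicle sum at both stages. It stood at 139, 105 and 127 CPM before and 86.1, 77.1 and 89 CPM after. Its stages did not overlap, and with the 6 MZ libraries alone it was called lower (log2 change -0.56).

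Of 16595 genes tested, 6559 (39.5%) passed an adjusted p of 0.05 in the edgeR quasi-likelihood test between the MZ stages, 3061 (18.4%) higher and 3498 (21.1%) lower at sphere. Those that changed by more than 2-fold were 1908 (11.5%) higher and 1534 (9.24%) lower. Libraries of the stages did not overlap for 9421 genes (56.8%), and for 6430 of the 6559 called. The increases were far larger than the decreases, as the plot of level against change shows. Of the 3014 genes above 100 CPM in 4- to 8-cell embryos, 730 fell by less than 2-fold, 234 by 2- to 4-fold, 16 by 4- to 8-fold and none by more, while 1402 did not pass. The balance of rises and falls moved with the scaling, and the counts of the lists below moved with it. Rises made up 46.7% of the calls with the trimmed mean of M-values (3061 against 3498) and 58.6% with upper-quartile factors (3943 against 2784). On log2(TPM + 1) they made up 21.7% (1875 against 6761, by limma), on a scale on which the median gene stood at -0.35, against -0.04 in CPM. List counts given below on log2(TPM + 1) are to be read beside these 1875 and 6761 of 16595 genes. Those with upper-quartile factors stand beside 3943 and 2784 of 16627.

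**Figure D1:**
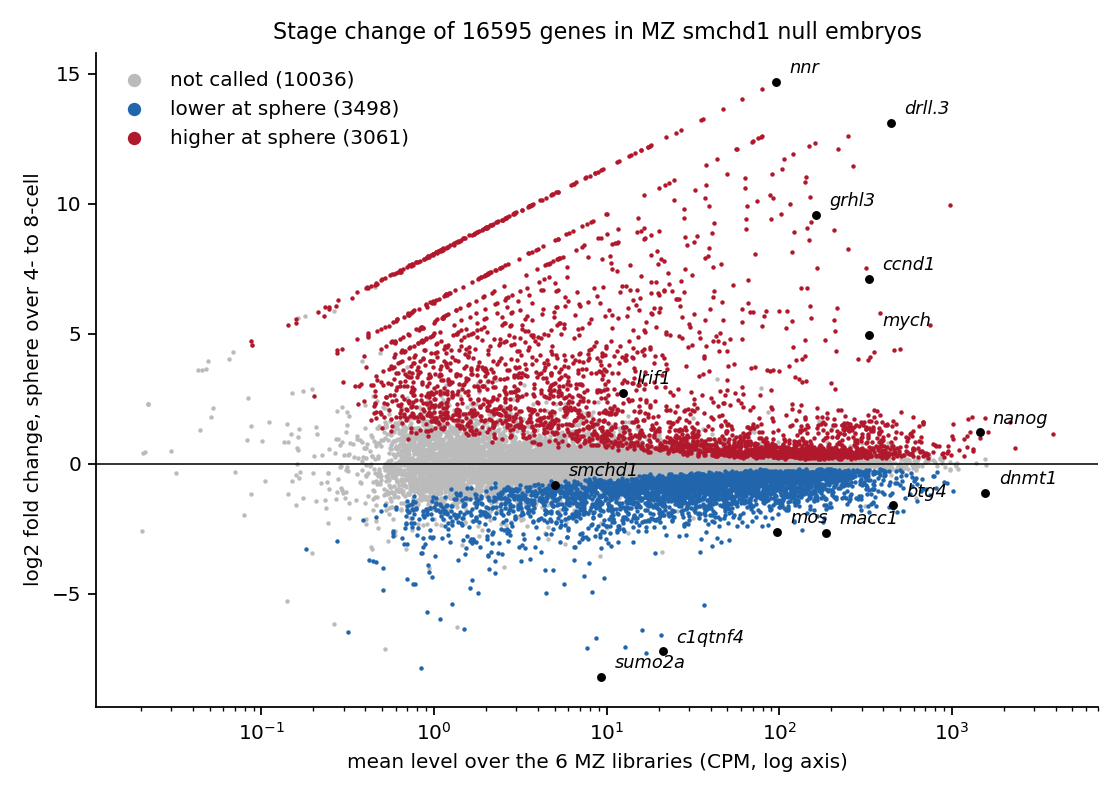
Each point is 1 of 16595 genes in MZ embryos, with its mean level over the 6 libraries in CPM on a log axis and its log2 fold change from the 4- to 8-cell to the sphere stage. The 3061 genes called higher (red) reach log2 changes above 14, while the 3498 called lower (blue) lie mostly within 3 of the zero line, and straight lines of red points are genes with 0 or a few counts in 4- to 8-cell embryos, whose fitted change is not a measured fold.

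Genes that were all but absent from 4- to 8-cell embryos were taken as strictly zygotic where they were called higher with a mean under 0.5 CPM before and at least 5 CPM at sphere. There were 313 of them, and 60 had no count in any 4- to 8-cell library. Together they took 0.00460, 0.00402 and 0.00463% of the counts in 4- to 8-cell replicates 1 to 3 and 1.65, 1.53 and 1.2% in sphere replicates 1 to 3. At sphere 37 stood at 100 CPM or more, 162 between 10 and 100 and 114 below 10. Only 199 (63.6%) carried a gene name not derived from a clone, against 81.1% of all genes tested. Sphere replicate 3 had the lowest level of the 3 for 220 of the 313 genes, where it was lowest for 5405 of all 16595, and the highest for 860 of the 1534 genes that fell by more than 2-fold, where it was highest for 5872 of all. The part of this library in the spread of the results below was not tested.

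The most abundant strictly zygotic gene was drll.3, with 0.147, 0.0566 and 0.0609 CPM before and 922, 972 and 753 CPM after (log2 change 13.12, SE 0.25, adjusted p 5.8e-11). The T-box factor tbx16, which directs mesoderm cells of the trunk, stood at 0.0977, 0.0566 and 0.0609 CPM before and 674, 527 and 309.6 CPM after (log2 change 12.61, SE 0.53, adjusted p 1.3e-08). The gene stm, which encodes starmaker, a protein of the ear stones in later larvae, stood at 0.0977, 0.113 and 0.0609 CPM before and 617, 476 and 216 CPM after (log2 change 12.10, SE 0.67, adjusted p 1.4e-07). In these 3 genes a few reads before were followed by 216 CPM or more in every sphere library, and sphere replicate 3 was the lowest. The gene asb11, which encodes a ubiquitin ligase subunit, stood at 0.0488, 0.0566 and 0.0609 CPM before and 308, 351 and 237 CPM after (log2 change 12.22, SE 0.33, adjusted p 6.2e-10). The gene vgll4l, of a family of cofactors of TEAD factors, stood at 0.293, 0.17 and 0.244 CPM before and 429, 279 and 193 CPM after (log2 change 10.25, SE 0.51, adjusted p 5.8e-08). The hyaluronan synthase has2 had 3 counts over the 4- to 8-cell libraries and stood at 311, 242 and 170.3 CPM at sphere, a ratio of 4204 with a 95% counting interval of 1438 to 20388.

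The 12 largest increases among named genes were nnr, PRICKLE1, ACKR3, drll.3, tbx16, znf1125, znf1126, znf1127, vent, asb11, cldn23.1 and mxtx1. No read of nnr was counted in the 4- to 8-cell libraries, and at sphere it stood at 202, 196 and 179 CPM, at least 3479-fold higher against a floor of 3 counts over the group. The same held for ACKR3 (ENSDARG00000058179), a scavenger receptor for the chemokine Cxcl12, at 97.8, 98.4 and 86.8 CPM, at least 1713-fold higher against a floor of 3 counts over the group. PRICKLE1 (ENSDARG00000045694), of the planar cell polarity pathway, rose from 0 to 241, 161 and 78.2 CPM, at least 2697-fold higher against a floor of 3 counts over the group. These genes were at 0 before and in every sphere library after, with the largest spread in PRICKLE1. Of the 3 neighbouring numbers of the zinc finger family, each with 1 count before, znf1125 reached 104, 161 and 213 CPM, znf1126 90.8, 158 and 201 CPM and znf1127 121, 135 and 159 CPM. Here sphere replicate 3 was the highest, against the order of tbx16 and stm. Over the 243 tested genes named znf with a number, 80 rose and 36 fell, where 18.4 and 21.1% of all genes did. Their median log2 change was 0.42.

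Genes that pattern the blastula rose as groups. Of 31 tested transcription factors of mesendoderm and the dorsal organizer, 25 rose (18.4% of all genes did) and 3 fell (21.1% of all), with a median log2 change of 6.63, or 6.59 with genes at 0 put at their lower bound, against -0.04 over all genes. Every one of the 25 changed by more than 2-fold, and 16 belonged to the strictly zygotic genes. The mix-type homeobox gene mxtx2, which acts in the yolk syncytial layer, stood at 0.147, 0.113 and 0.183 CPM before and 218, 201 and 131 CPM after (log2 change 10.22, SE 0.44, adjusted p 1.6e-08). The notochord homeobox gene noto stood at 0.0488, 0.113 and 0 CPM before and 109, 68.7 and 43.8 CPM after, a ratio of 1241 with a 95% counting interval of 424 to 6021. The brachyury gene tbxta stood at 0.733, 0.68 and 0.427 CPM before and 60.9, 32.5 and 27 CPM after (log2 change 6.0, SE 0.55, adjusted p 7.7e-06). All 3 were separate between stages by at least an order of magnitude.

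The GATA factor gata5, which acts in endoderm, had 1 count before and stood at 20.8, 12.6 and 2.79 CPM at sphere, a ratio of 592 with a 95% counting interval of 106 to 23444. The gene sox32, whose factor commits cells to endoderm, had 3 counts before and stood at 10.6, 5.91 and 2.17 CPM, a ratio of 101 with a 95% counting interval of 34.2 to 496. In both, sphere replicate 1 was several times above replicate 3. The homeobox gene dharma, a target of maternal Wnt signalling, had no count before and stood at 7.49, 7.71 and 6.13 CPM, at least 129-fold higher against a floor of 3 counts over the group, and gsc stood at 2.05, 0.736 and 0.975 CPM before and 49.2, 49.7 and 29.2 CPM after (log2 change 5.06, SE 0.40, adjusted p 2.7e-06). The hairy-related gene her5 stood at 0.342, 0.113 and 0.305 CPM before and 206, 213 and 195 CPM after (log2 change 9.60, SE 0.25, adjusted p 4.6e-10), the smallest spread between sphere libraries among these factors that are named here. The 3 that fell were otx1, otx2b and her1. The hairy-related gene her1, of the segmentation clock, fell from 3.22, 1.98 and 2.8 CPM before to 0.657, 0.808 and 1.01 CPM after (log2 change -1.67, SE 0.36, adjusted p 0.0033), with the stages apart.

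Of 31 tested signals and their antagonists, 26 (83.9%) rose and 1 (3.23%) fell, against 18.4 and 21.1% of all genes. Their median log2 change was 5.87 (5.31 with genes at 0 at their bound). The Nodal ligands ndr1 and ndr2, which induce mesendoderm, were both higher. The first stood at 2.98, 1.42 and 1.71 CPM before and 31.9, 26.4 and 22 CPM after. The second stood at 0.733, 0.623 and 0.609 CPM before and 14.2, 12.3 and 9.16 CPM after (log2 change 4.16, SE 0.29, adjusted p 8.4e-07). Their co-receptor gene tdgf1 was already present in the egg and rose from 93.3, 73.6 and 69 CPM before to 263, 313 and 243 CPM after (log2 change 1.80, SE 0.15, adjusted p 3.9e-06). The Nodal antagonists lft1 and lft2 rose as well. The first stood at 0.147, 0.17 and 0.305 CPM before and 39.7, 30.8 and 24.3 CPM after. The second stood at 0.0977, 0 and 0.0609 CPM before and 42.7, 31.6 and 24.9 CPM after. Ligand, co-receptor and antagonists were thus all higher at sphere, from very different starting levels. The 1 signal of the list that fell was 1 of the 2 gene IDs named wnt8a (ENSDARG00000052910), a ventral Wnt ligand, from 15.6, 25.4 and 16.9 CPM before to 6.31, 12.1 and 11.2 CPM after (log2 change -0.95, SE 0.27, adjusted p 0.014). Reads of similar copies can be split between such IDs, and the call was lost without 4- to 8-cell replicate 2 (log2 change -0.71). Outside the list the maternal TGF-beta ligand gdf3, a partner of Nodal, also fell, from 460.1, 404 and 466 CPM before to 264, 261 and 242 CPM after (log2 change -0.80, SE 0.10, adjusted p 6.9e-05). In wt embryos it went the other way, from a mean of 325 to 514 CPM (log2 fold change 0.66), and the stage change differed between genotypes by -1.46 (edgeR interaction, adjusted p 0.0023).

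Of the BMP pathway, the ligand gene bmp7a stood at 2.73, 1.02 and 1.77 CPM before and 58.7, 64.1 and 35.5 CPM after (log2 change 4.82, SE 0.42, adjusted p 5.2e-06). The ligand gene bmp4 stood at 2.2, 1.59 and 1.95 CPM before and 9.73, 4.85 and 5.74 CPM after (log2 change 1.81, SE 0.40, adjusted p 0.0037). The ligand gene BMP2 (ENSDARG00000041430; the tables do not say which copy) stood at 5.57, 3.23 and 3.9 CPM before and 90.2, 92.6 and 73.6 CPM after (log2 change 4.33, SE 0.22, adjusted p 7.2e-08). Its 4- to 8-cell level was above the wt mean of 0.543 CPM while the sphere levels were near the wt mean of 109 CPM, so that the 2 genotypes differed in the stage change by -3.30 on the log2 scale (interaction, adjusted p 0.0025). The BMP antagonist chrd, made by the organizer, stood at 0.44, 0.34 and 0.548 CPM before and 125, 87.7 and 63.3 CPM after (log2 change 7.68, SE 0.31, adjusted p 1.1e-08). The organizer BMP ligand gene admp stood at 0.244, 0.0566 and 0.0609 CPM before and 98.8, 88.1 and 64.5 CPM after (log2 change 9.28, SE 0.47, adjusted p 6.5e-08).

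A list of ventral repressors and ectoderm factors was mostly higher as well. Of its 24 tested members 17 (70.8%) rose and 2 (8.33%) fell, against 18.4 and 21.1% of all genes. Their median log2 change was 5.84. The list is not of ventral genes alone, as it also holds sox19a and SOX11 (ENSDARG00000077811), a factor of neural progenitors. The homeobox repressors vox, vent and ved, which keep organizer genes off on the ventral side, stood at 167, 158 and 55.3, at 60.6, 32.8 and 14 and at 121, 113 and 65.7 CPM at sphere, each with 4 or fewer counts over the 4- to 8-cell libraries. Sphere replicate 3 was the lowest for all 3. The Krüppel-like factor klf17, of the epidermis and hatching gland, was steadier, with 0.635, 0.396 and 0.548 CPM before and 252, 323 and 289 CPM after (log2 change 9.06, SE 0.18, adjusted p 5.8e-11). The 2 that fell were msx1b and id2a. The first fell from 37, 20.6 and 43 CPM before to 5.39, 6.47 and 9.39 CPM after. The second fell from 103, 56.3 and 83.4 CPM before to 16.8, 31.5 and 36.5 CPM after.

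Signals of cell movement rose too. The ligand gene apela and its receptors aplnra and aplnrb, which guide mesendoderm cells in gastrulation, had 1, 2 and 3 counts before. At sphere they stood at 37.5, 51.6 and 32.2, at 95.7, 80.5 and 48.3 and at 197, 93.2 and 88.2 CPM. The chemokine gene cxcl12a had 2 counts before and 24.7, 16.7 and 12 CPM after. Both CXCR4 genes, which encode its signalling receptor, rose. The one with ID ENSDARG00000057633 rose from 4.93, 2.1 and 4.57 CPM before to 156, 166 and 142 CPM after (log2 change 5.31, SE 0.26, adjusted p 4.8e-08). Ligands and receptors of both systems were therefore higher at sphere in every library. The fibroblast growth factor gene fgf17 had no count before and 45.7, 31.3 and 18.2 CPM after. Its receptor gene fgfr4 stood at 0, 0.283 and 0.122 CPM before and 197, 194 and 140.4 CPM after. The gene dusp6, a feedback inhibitor that FGF signalling induces, stood at 0.293, 0.113 and 0.305 CPM before and 129, 136 and 122 CPM after (log2 change 9.04, SE 0.30, adjusted p 2.5e-09). The genes gdf3, admp and fgfr4 are in none of the lists and were chosen after their values were seen, as were stm, vgll4l and has2 above.

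The enveloping layer is the first epithelium of the embryo. Of its 22 tested genes 17 (77.3%) rose and 1 (4.55%) fell, against 18.4 and 21.1% of all genes, with a median log2 change of 5.68. Its regulator grhl3 stood at 0.293, 0.453 and 0.548 CPM before and 349, 351 and 278 CPM after (log2 change 9.56, SE 0.30, adjusted p 1.6e-09). The keratin gene krt4 stood at 0.488, 0.623 and 0.366 CPM before and 279, 293 and 158 CPM after. The keratin gene krt18a.1 stood at 0.244, 0 and 0.183 CPM before and 351, 318 and 178 CPM after. The claudin cldne had 1 count before and 129.7, 127 and 79.6 CPM after, and the envoplakin gene evpla none before and 46.3, 31 and 10.4 CPM after, at least 489-fold higher against a floor of 3 counts over the group. The regulator grhl3 and these structural genes were all but absent before and present in every sphere library. The list as a whole was not, as its 29 genes summed to 2184 ± 146 CPM before and 3507 ± 652 CPM after (SD, n = 3). The cadherin gene cdh1, present from the egg, stood at 821, 728 and 781 CPM before and 804, 842 and 794 CPM after and did not pass.

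**Figure D2:**
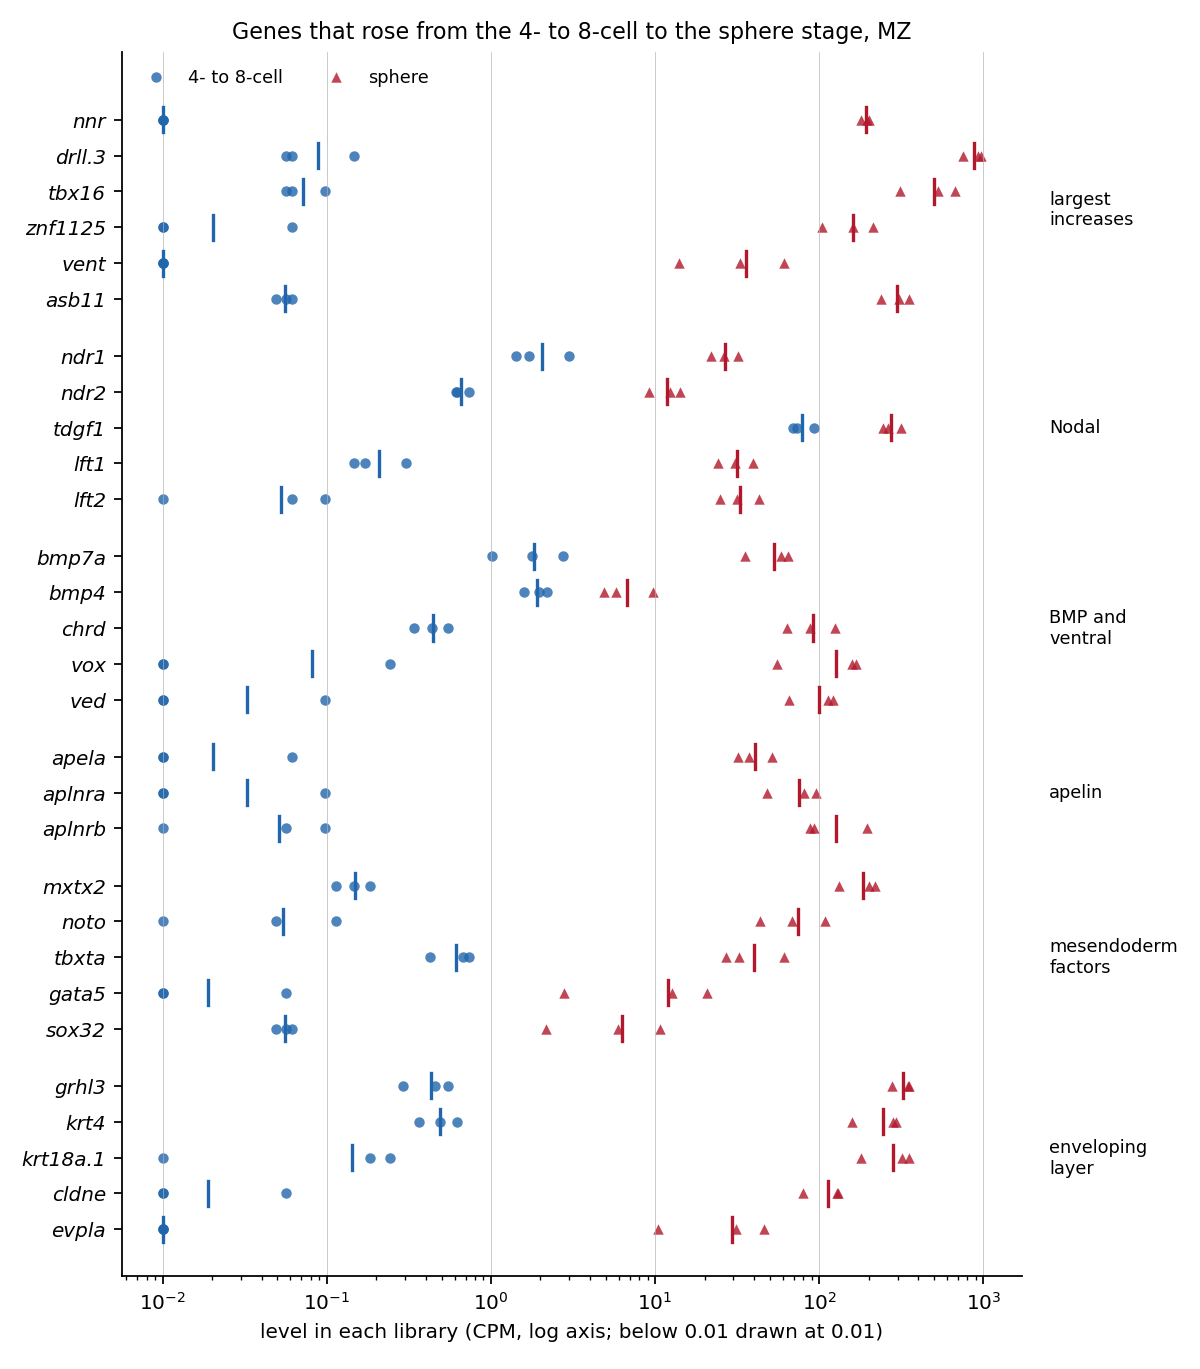
Levels of 29 genes in each of the 6 MZ libraries, in CPM on a log axis, with circles for the 4- to 8-cell stage, triangles for the sphere stage and bars for group means; values below 0.01 CPM, all of them 0, are drawn at 0.01. In each gene the sphere libraries lie above all 4- to 8-cell libraries, with tdgf1 starting near 100 CPM and the strictly zygotic genes at or near 0.

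Of 25 tested maternal activators of the zygotic genome, 12 (48%) rose and 2 (8%) fell, against 18.4 and 21.1% of all genes. Their median log2 change was 0.30. On log2(TPM + 1) this turned to 6 higher and 9 lower, with a median of -0.10. Of all 16595 genes 1875 were higher and 6761 lower on that scale, with a median of -0.35. Their summed level was 7200.1 ± 133 CPM before and 12142 ± 869 CPM after (exact permutation test, two-sided p = 0.1, the smallest that 3 against 3 libraries allow). The Myc gene mych rose from 22.4, 16.9 and 22.6 CPM before to 683, 715 and 523 CPM after (log2 change 4.96, SE 0.20, adjusted p 1.1e-08). The homeobox gene nanog rose from 879, 895 and 849 CPM before to 2069, 2140.2 and 1847 CPM after (log2 change 1.21, SE 0.08, adjusted p 7.9e-07). The POU gene pou5f3 rose from 593, 588 and 644 CPM before to 1045, 1076 and 857 CPM after (log2 change 0.71, SE 0.13, adjusted p 0.0015), a call that was lost on log2(TPM + 1). The third of the main activators, sox19b, stood at 690.1, 636 and 660.2 CPM before and 567, 619 and 673 CPM after, and its stages overlapped (adjusted p 0.5). Its zygotic relative sox19a rose from 0.147, 0.0566 and 0.488 CPM before to 213, 267 and 217 CPM after (log2 change 9.99, SE 0.30, adjusted p 1.2e-09), so that the pair of SoxB1 genes differed in stage. The oocyte TBP paralogue tbpl2 fell from 36.4, 34.7 and 36.6 CPM before to 15.2, 10.4 and 17 CPM after (log2 change -1.34, SE 0.22, adjusted p 0.00052).

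Genes of the oocyte and egg fell. Of 41 tested, 22 (53.7%) fell and 4 (9.76%) rose, where 21.1% of all genes fell and 18.4% rose. Their median log2 change was -0.66, and their summed level went from 9786 ± 580 to 5683 ± 442 CPM. The oocyte-to-embryo gene zar1l fell from 533, 389.7 and 461 CPM before to 93.1, 129.6 and 179 CPM after (log2 change -1.78, SE 0.27, adjusted p 0.00031). The gene btg4, which recruits the CCR4-NOT deadenylase to maternal RNA in mouse eggs, fell from 774, 604 and 668 CPM before to 169, 212 and 292 CPM after (log2 change -1.60, SE 0.30, adjusted p 0.0013). The meiotic kinase gene mos, which holds eggs in metaphase, fell from 177, 150.0 and 176 CPM before to 26.4, 24.3 and 31.6 CPM after (log2 change -2.61, SE 0.27, adjusted p 2e-05). In these 3 genes the stages were well apart, and sphere replicate 3 kept the most. The oocyte growth factor bmp15 fell from 157, 141 and 151 CPM before to 58.1, 63.7 and 75 CPM after. The importin gene kpna2 fell from 538, 581 and 523 CPM before to 155, 184 and 191 CPM after. The egg coat gene zp3b fell from 170.1, 178 and 146 CPM before to 56.8, 56.1 and 64.4 CPM after, and none of these overlapped. Of the 4 that rose, ftr82 went from 1.81, 2.1 and 1.46 CPM before to 149, 153 and 87.9 CPM after (log2 change 6.17, SE 0.34, adjusted p 1.3e-07). The gene ybx1, which encodes an RNA-binding protein that holds maternal messages, rose from 187, 203 and 200.3 CPM before to 527, 531 and 382 CPM after.

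Germ plasm genes fell as well. Of 24 tested, 16 (66.7%) fell and 1 (4.17%) rose, where 21.1% of all genes fell and 18.4% rose. Their median was -0.88, and the sum went from 4603 ± 175 to 2573 ± 218 CPM. The organizer of the germ plasm, buc, fell from 989, 787 and 905 CPM before to 364, 455 and 486 CPM after (log2 change -1.04, SE 0.14, adjusted p 0.00011). The RNA-binding dazl fell from 229.5, 211 and 252 CPM before to 93.8, 82.4 and 90.5 CPM after (log2 change -1.38, SE 0.18, adjusted p 0.0001). The piRNA protein gene piwil2 fell from 148, 189.9 and 154 CPM before to 35.1, 55 and 58.7 CPM after (log2 change -1.72, SE 0.29, adjusted p 0.00068). The helicase gene ddx4 (vasa) stood at 163, 183 and 159.5 CPM before and 187, 167 and 176 CPM after, with overlapping stages, and did not pass (adjusted p 0.57).

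Of 65 tested genes of the machinery that removes maternal RNA, 16 (24.6%) rose and 16 fell, near the 18.4 and 21.1% of all genes, with a median of 0.01. The split was 5 higher and 35 lower on log2(TPM + 1) and 22 and 11 with upper-quartile factors. In CPM 10 rose without 4- to 8-cell replicate 1 or without sphere replicate 2. The deadenylase parn fell from 587, 564 and 605 CPM before to 327, 365 and 361 CPM after (log2 change -0.74, SE 0.07, adjusted p 1.2e-05). The gene cth1, of a CCCH zinc finger family that binds AU-rich elements, fell from 1081, 1073 and 1028 CPM before to 512, 568 and 605 CPM after (log2 change -0.92, SE 0.09, adjusted p 1.9e-05). The m6A reader ythdf2 rose from 185, 190.2 and 184 CPM before to 333, 289 and 243 CPM after (log2 change 0.63, SE 0.11, adjusted p 0.0008). The gene elavl1a, whose product stabilises RNA, rose from 324, 245 and 269 CPM before to 554, 527 and 485 CPM after (log2 change 0.90, SE 0.15, adjusted p 0.00057).

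Of 58 tested cell cycle regulators, 17 (29.3%) rose and 23 (39.7%) fell, against 18.4 and 21.1% of all genes, with a median of -0.04. The split was 10 higher and 33 lower on log2(TPM + 1), with a median of -0.42, and 19 and 19 with upper-quartile factors. Cyclin D1, ccnd1, which drives the G1 phase that cleaving cells lack, stood at 10.4, 1.7 and 1.52 CPM before and 861, 659 and 440.4 CPM after (log2 change 7.12, SE 0.72, adjusted p 1.6e-05), with 4- to 8-cell replicate 1 above the other two. Cyclin E2, ccne2, rose from 4, 1.98 and 3.53 CPM before to 94.6, 99.2 and 61 CPM after (log2 change 4.73, SE 0.35, adjusted p 1.6e-06). The gene cdkn1cb, which encodes an inhibitor of cyclin-dependent kinases, had 3 counts before and 23.1, 25.7 and 19.5 CPM after, a ratio of 418 with a 95% counting interval of 143 to 2031. The mitotic kinase gene cdk1 fell from 123, 113 and 109.6 CPM before to 45.1, 43.5 and 45.9 CPM after (log2 change -1.36, SE 0.13, adjusted p 1.4e-05). The mitotic kinase gene aurkb fell from 334, 328 and 309 CPM before to 129.9, 154 and 167 CPM after (log2 change -1.10, SE 0.10, adjusted p 8.8e-06). Of the 2 gene IDs named mcm6, a subunit of the replicative helicase, 1 (ENSDARG00000057683) rose from 0.733, 0.453 and 0.183 CPM before to 37.2, 61.7 and 42.7 CPM after (log2 change 6.63, SE 0.52, adjusted p 2.4e-06).

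**Figure D3:**
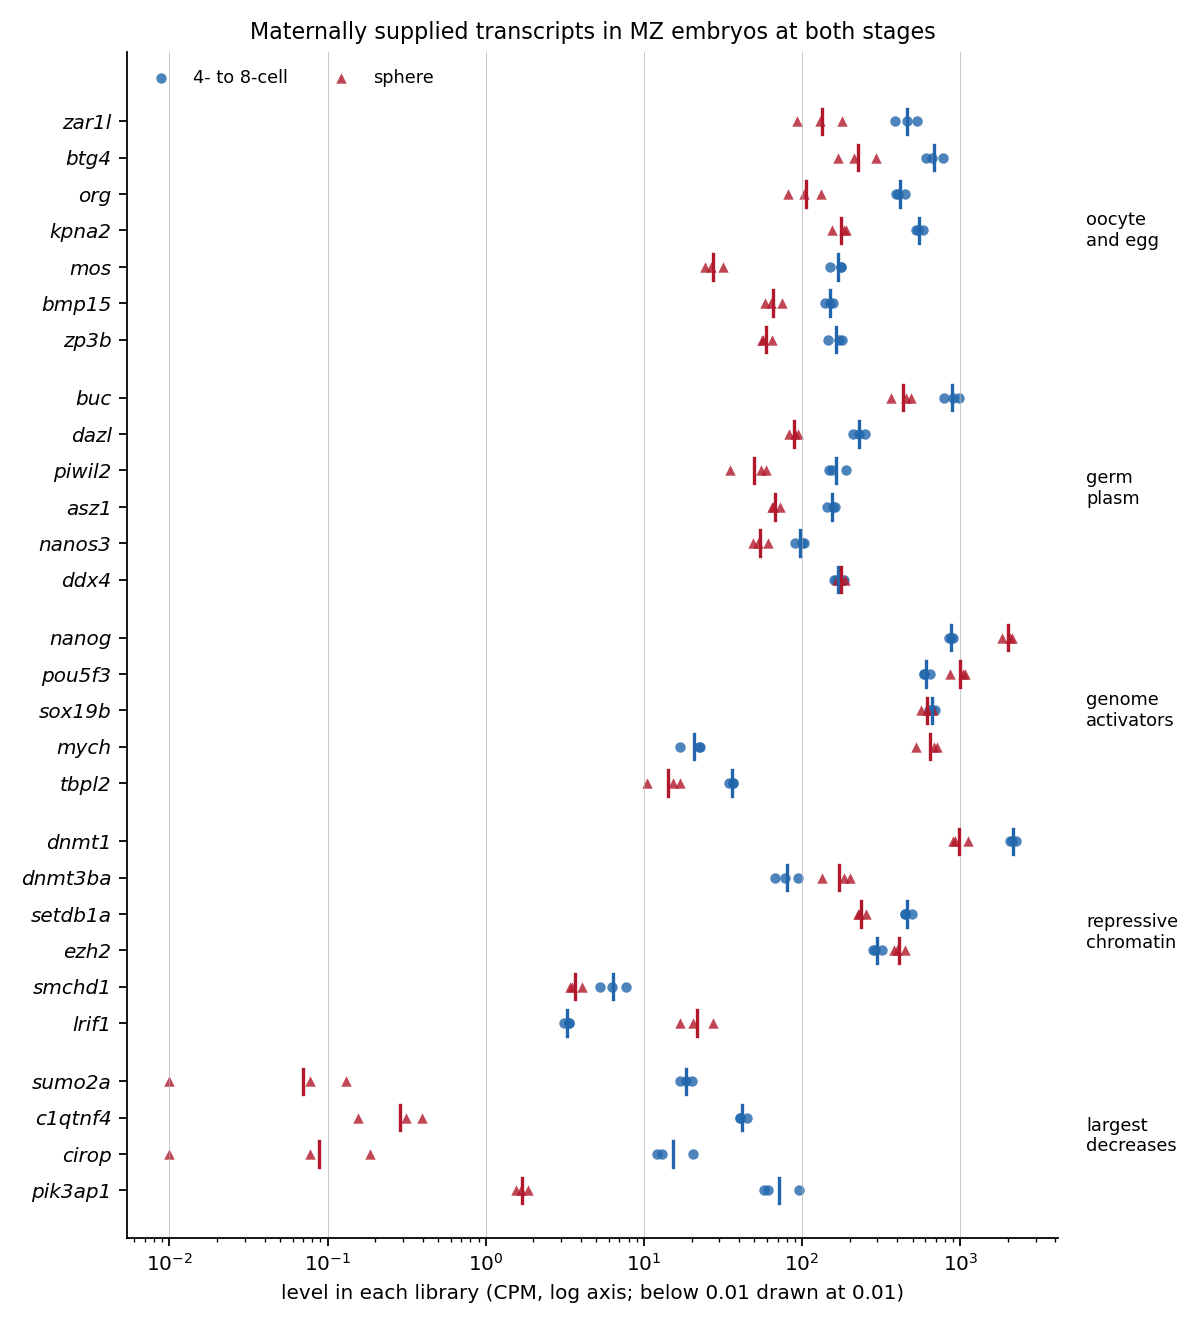
Levels of 28 genes that 4- to 8-cell MZ embryos held, in each of the 6 libraries in CPM on a log axis, drawn as in the plot of rising genes. The oocyte genes shown and 5 of the 6 germ plasm genes are lower in all sphere libraries, ddx4 and sox19b overlap, and nanog, pou5f3 and mych are higher, while the 4 largest decreases fall below 2 CPM.

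Smchd1 acts in repressive chromatin. Of 30 other tested genes of this setting, those of DNA and H3K9 methylation, 7 (23.3%) rose and 8 (26.7%) fell, against 18.4 and 21.1% of all genes, with a median of -0.02. The split was 3 higher and 13 lower on log2(TPM + 1) and 11 and 5 with upper-quartile factors. In CPM 4 fell without 4- to 8-cell replicate 2 or without sphere replicate 2, and 5 without sphere replicate 3. The maintenance methyltransferase dnmt1 fell from 2253, 2129 and 2073 CPM before to 899, 921 and 1115 CPM after (log2 change -1.14, SE 0.12, adjusted p 2.3e-05). The de novo enzyme gene dnmt3ba rose from 94.4, 67.3 and 78.2 CPM before to 133, 200.2 and 183 CPM after (log2 change 1.11, SE 0.18, adjusted p 0.00049). The H3K9 methyltransferase gene setdb1a fell from 445, 495 and 449.6 CPM before to 225, 228 and 253 CPM after (log2 change -0.98, SE 0.09, adjusted p 1.2e-05), all sphere libraries below all before. In wt embryos its means went from 471 to 155 CPM, and the interaction was 0.63 (adjusted p 0.04). Of 40 Polycomb and trithorax genes 7 (17.5%) rose and 12 (30.0%) fell, against 18.4 and 21.1% of all genes, with a median of -0.12. The split was 2 higher and 21 lower on log2(TPM + 1), with a median of -0.46, and 10 and 11 with upper-quartile factors. The catalytic subunit ezh2 rose from 288, 320.1 and 282 CPM before to 381, 448 and 399 CPM after (log2 change 0.46, SE 0.08, adjusted p 0.0011), and this call too was lost on log2(TPM + 1). The H3K27 demethylase gene kdm6a fell from 143, 123 and 138 CPM before to 74, 72.3 and 55.5 CPM after (log2 change -1.0, SE 0.11, adjusted p 2.9e-05). Of 28 genes of the SMC family and its partners, smchd1 and lrif1 included, 3 (10.7%) rose and 7 (25%) fell, against 18.4 and 21.1% of all genes. Of those called, all but lrif1 changed by less than 2-fold. The split was 2 higher and 17 lower on log2(TPM + 1) and 5 and 5 with upper-quartile factors.

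Of 34 clustered protocadherin genes in the tables, a family that SMCHD1 silences in mammals, 1 passed the filter on low counts. This was pcdh2ab8, with 0, 0 and 0 CPM before and 1.31, 0.0622 and 0 CPM after, called with overlapping libraries (adjusted p 0.048) and no longer called without sphere replicate 1 or without any 4- to 8-cell library, against wt means of 2.03 and 1.56 CPM. Among members below the filter, which have no test in this fit, 3 chosen after their values were seen went the other way with stages apart. The gene pcdh1g3 stood at 2.3, 1.93 and 1.71 CPM before and 0, 0.249 and 0.388 CPM after. The gene pcdh1g2 stood at 1.56, 2.1 and 1.89 CPM before and 0, 0.249 and 0.0776 CPM after. The gene pcdh2ab10 stood at 2.05, 1.02 and 1.22 CPM before and 0.526, 0.435 and 0.31 CPM after. These 3 had 109, 100 and 80 counts over the 4- to 8-cell libraries and 9, 5 and 15 over the sphere libraries. In wt embryos they had at most 10 counts over the libraries of a stage. The sum over all 34 was 5.81 ± 0.806 CPM before and 3.8 ± 0.93 CPM after in MZ embryos, against means of 2.75 and 4.22 CPM in wt. With the filterByExpr filter 5 members were tested, of which 2 rose and 2 fell.

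Hox genes, which pattern the body axis later in development, were low at both stages. Of 47 genes listed, 11 passed the filter on low counts, and of these 5 fell and none rose, where 21.1% of all genes fell and 18.4% rose. Most of the 11 had their highest group mean in the MZ 4- to 8-cell libraries and passed the filter largely through them, so that a fall among them is no measure of the family. With no filter 7 of 45 fell, where 3288 of all 26556 genes did. Their median was -0.41, against 0.04 over all. At a mean count above 50 it was 2 of 4, where 3284 of all 13003 fell. Of the 11, 2 fell without sphere replicate 2 or 3, and 3 of 10 without 4- to 8-cell replicate 1. In wt embryos 4 of the 11 were called lower and none higher, and none passed the interaction test. The median of the 11 was -1.60 in MZ and -1.53 in wt embryos. The sum over all 47 went from 65.1 ± 5.35 to 29.5 ± 4.18 CPM in MZ embryos (n = 3), with 16.4 and 9.78 CPM as the means in wt embryos. The largest change by adjusted p in MZ embryos was in hoxb2a, from 9.43, 11.9 and 18.4 CPM before to 1.97, 1.68 and 2.02 CPM after (log2 change -2.81, SE 0.33, adjusted p 4.8e-05). Next came hoxb7a, from 4.4, 4.59 and 4.02 CPM before to 0.526, 0.808 and 0.854 CPM after (log2 change -2.53, SE 0.58, adjusted p 0.0045). The gene hoxc10a stood at 7.08, 5.61 and 6.22 CPM before and 4.21, 8.02 and 5.74 CPM after, overlapped between stages and did not pass.

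Of 85 cytosolic ribosomal protein genes 35 (41.2%) rose and 4 (4.71%) fell, against 18.4 and 21.1% of all genes, with a median of 0.30. On log2(TPM + 1) 3 were higher and 13 lower, with a median of -0.11. Of all 16595 genes 1875 were higher and 6761 lower on that scale, with a median of -0.35. With upper-quartile factors 53 of the list were higher and 2 lower. In CPM 21, 19 and 13 rose without 4- to 8-cell replicate 2, 4- to 8-cell replicate 3 and sphere replicate 2. Of 73 mitochondrial ribosomal protein genes 28 (38.4%) fell and none rose, where 21.1% of all genes fell and 18.4% rose, with a median of -0.45. Among them 15 fell by more than 2-fold, where 9.24% of all genes did. Over the alternative settings the number lower ranged from 23 to 60. The 13 genes of the mitochondrial genome summed to 6585 ± 1494 CPM before and 13093 ± 1608 CPM after. Of these, 7 (53.8%) were called higher and none lower, against 18.4 and 21.1% of all genes. The number called higher was 1 on log2(TPM + 1), 4, 2 and 9 without 4- to 8-cell replicates 1, 2 and 3, and 4 without sphere replicate 2 or 3. Among the 7 was MT-CO1, from 2270.4, 1860.5 and 3036 CPM before to 4564, 5484 and 5875 CPM after (log2 change 1.15, SE 0.27, adjusted p 0.0059). Of 40 histone and nucleosome assembly genes 18 (45%) rose and 5 (12.5%) fell, against 18.4 and 21.1% of all genes, with a median of 0.32. On log2(TPM + 1) 11 were higher and 10 lower, with a median of -0.06. The replacement histone h3f3a rose from 281, 262 and 254 CPM before to 933, 1006 and 837 CPM after (log2 change 1.80, SE 0.13, adjusted p 9.5e-07). The histone RNA-binding gene slbp2 fell from 466, 390.2 and 470.2 CPM before to 119, 139 and 177 CPM after (log2 change -1.60, SE 0.18, adjusted p 4.3e-05). Of 73 ribosome biogenesis genes 16 (21.9%) rose and 13 (17.8%) fell, near the shares of all genes. Their median was 0.12 (5 and 30 on log2(TPM + 1), 25 and 9 with upper-quartile factors). Of 42 proteasome genes 8 rose and 5 fell, with a median of 0.08 (0 and 17 on log2(TPM + 1), 15 and 4 with upper-quartile factors). Without sphere replicate 2 the proteasome genes that rose were 5. Poly-A selection leaves out most replication-dependent histone RNA, so that the list speaks for polyadenylated messages only.

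Of 29 tested genes of the p53 and DNA damage response 11 (37.9%) rose and 8 (27.6%) fell, against 18.4 and 21.1% of all genes. Their median was 0.06 (7 and 11 on log2(TPM + 1), with a median of -0.24). Sphere replicate 1 was the highest of the 3 for 839 of the 1908 genes that rose by more than 2-fold, where it was highest for 5898 of all 16595. The p53 targets bbc3, which encodes the apoptosis factor Puma, and phlda3 were both highest there too. The first stood at 1.42, 3.45 and 1.71 CPM before and 26.4, 11.3 and 9.55 CPM after. The second stood at 0, 0.283 and 0 CPM before and 20.5, 6.28 and 3.65 CPM after. Of 26 immediate-early and stress genes 13 (50%) rose and 5 (19.2%) fell, against 18.4 and 21.1% of all genes. Their median was 1.0 (11 and 7 on log2(TPM + 1), with a median of 0.36). The gene ier5 rose from 0.537, 0.283 and 0.427 CPM before to 98.6, 88.6 and 58.1 CPM after (log2 change 7.58, SE 0.42, adjusted p 1.3e-07). The gene jun, of the AP-1 factor, rose from 0, 0.113 and 0.488 CPM before to 21.3, 16.9 and 13.7 CPM after.

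**Figure D4:**
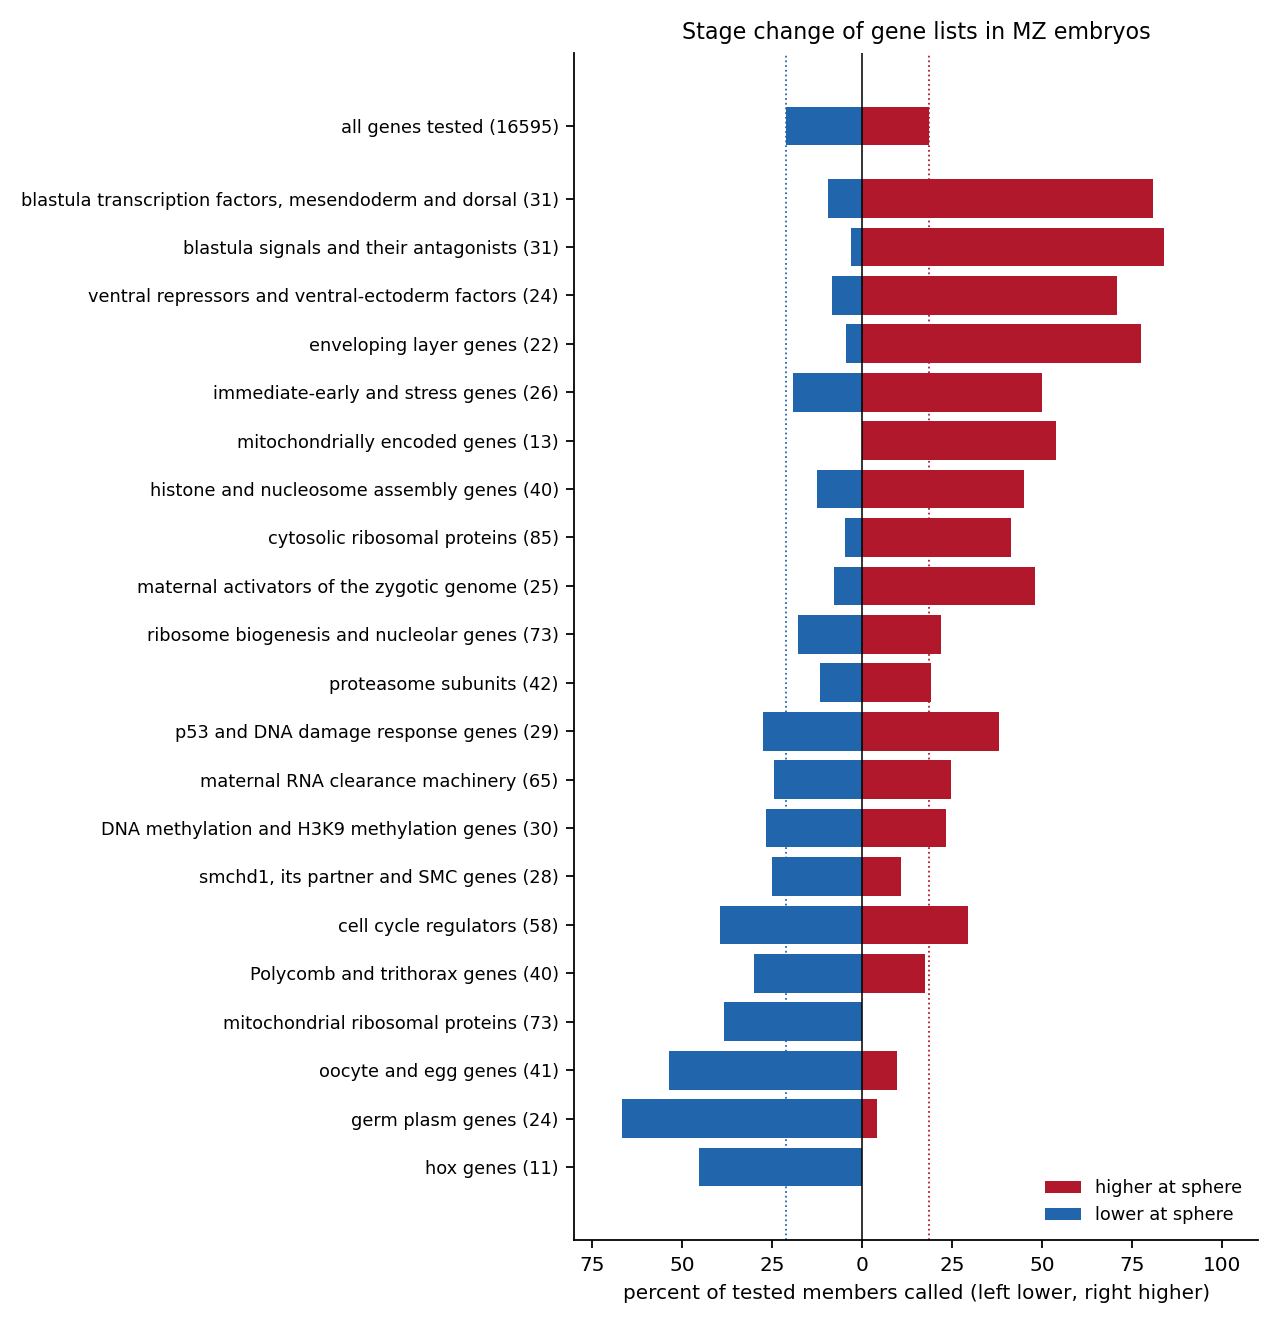
Percent of the tested members of each gene list (number tested in brackets) that were called higher (red, right) or lower (blue, left) at sphere in MZ embryos, ordered by median log2 change, in CPM, with all 16595 genes on top and as dotted lines at 18.4 and 21.1%. The 4 blastula and enveloping layer lists reach 70.8 to 83.9% higher, and germ plasm genes reach 66.7% lower.

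Few abundant maternal transcripts fell by more than 4-fold, and the largest decreases were in scarcer ones. The 12 largest among named genes were sumo2a, c1qtnf4, cirop, pik3ap1, rgs5b, ephx4, fbxo41, NDST4, xrcc2, sdhaf4, rhobtb1 and SNX1. The SUMO gene sumo2a fell from 18.4, 20.2 and 16.8 CPM before to 0.131, 0 and 0.0776 CPM after, with 2 counts left over the sphere libraries, a ratio of 4- to 8-cell over sphere of 339 with a 95% counting interval of 93.5 to 2799.9. The secreted protein gene c1qtnf4 fell from 40.2, 45.1 and 40.7 CPM before to 0.394, 0.311 and 0.155 CPM after (log2 change -7.22, SE 1.09, adjusted p 0.00031). The gene pik3ap1, which encodes an adaptor of phosphoinositide 3-kinase, fell from 57.7, 96.2 and 61.2 CPM before to 1.84, 1.68 and 1.55 CPM after (log2 change -5.41, SE 1.23, adjusted p 0.0045). These 3 were all but gone from MZ sphere embryos. In wt embryos their means were 11.9 and 6.27 CPM for sumo2a, 12.2 and 2.99 CPM for c1qtnf4 and 15.6 and 6.45 CPM for pik3ap1, none of them a called change. The difference of the stage change itself did not pass for any of the 3 (adjusted p 0.09, 0.068 and 0.16). By contrast cirop, which encodes a metallopeptidase of left-right patterning, fell in both genotypes. It fell from 20.4, 12.2 and 13 CPM before to 0, 0.187 and 0.0776 CPM after in MZ embryos and from a mean of 4.19 to 0.0408 CPM in wt. Among transcripts above 100 CPM the steepest fall was in macc1, chosen after its values were seen, from 329, 305 and 328 CPM before to 48.2, 45.4 and 57.4 CPM after (log2 change -2.67, SE 0.25, adjusted p 8.8e-06).

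A class of cleared transcripts was counted, at least 5 CPM in 4- to 8-cell embryos and at least 8-fold lower at sphere. It held 38 genes in MZ embryos and 70 in wt embryos by the same limits, and 6 were in both, 15.8% of the first and 8.57% of the second. Of the 38, 14 were called lower in wt embryos, where 25.5% of all genes were. Their median log2 change was -1.68 in wt, against -3.66 in MZ. The test of a difference was passed by 5 of the 38 and by 1.75% of all genes. The 38 were chosen on the MZ libraries. The 70 chosen on the wt libraries stood the other way round, with medians of -3.51 in wt and -1.62 in MZ. Of these, 39 were called lower in MZ embryos, where 21.1% of all genes were. The MZ class held 191 genes at a limit of 4-fold. By contrast 297 of the 313 strictly zygotic genes were called higher in wt embryos, where 22.5% of all genes were. Of the 313, 249 were strictly zygotic there too (79.6% of the MZ class and 67.1% of the 371 of the wt class). The test of a difference was passed by 5 of the 313, and by 1.75% of all genes. The 249 shared genes took 1.5, 1.38 and 1.09% of the counts in MZ sphere replicates 1 to 3 and 1.48, 1.63 and 1.43% in wt, which overlapped.

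The lists of patterning genes went the same way in wt embryos. There 22.5% of all genes were called higher and 25.5% lower, more than in MZ embryos. Called higher in wt were 25 of the 31 mesendoderm and dorsal factors and 27 of the 31 signals. So were 18 of the 24 ventral and ectoderm factors and 18 of the 22 enveloping layer genes. BMP2 was the 1 member of these 4 lists that passed the test of a difference. Of the oocyte genes 23 of 41 were lower in wt, of the germ plasm genes 15 of 24 and of the mitochondrial ribosomal protein genes 50 of 73, with none, none and 1 passing the test of a difference.

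Over all genes 5006 were called in the same direction in both genotypes and 62 in opposite directions. The wt comparison called 7967 genes (48.0%). Of the rest, 1491 were called in MZ alone and 2899 in wt alone, of which 66 and 93 passed the test of the difference. In all 291 of 16595 genes (1.75%) passed it, 178 (1.07%) with the higher change in MZ and 113 (0.681%) with the lower. For 125 (0.753%) and 71 (0.428%) the difference was over 2-fold, and for 150 the fitted changes had opposite signs. The largest differences toward a rise in MZ were in TSPAN18, trpm6, CCR6, ms4a17a.8, kctd12b and hspa8, and toward a fall in fbxo41, itpka, TESK1, itga10, agmat and rhobtb1. The tetraspanin gene TSPAN18 stood at 0.586, 0.396 and 0.914 CPM before and 4.07, 3.48 and 3.65 CPM after in MZ embryos, with wt means of 5.19 and 0.124 CPM (interaction 7.86, adjusted p 0.0091). The F-box gene fbxo41 stood at 13.6, 16.5 and 12.6 CPM before and 0, 0.56 and 1.4 CPM after, with wt means of 8.72 and 14.8 CPM (interaction -5.09, adjusted p 0.048). The magnesium channel gene trpm6 rose from 0.684, 0.736 and 0.853 CPM before to 20.8, 19.3 and 20.8 CPM after in MZ embryos while its wt means went from 19.7 to 5.91 CPM (interaction 6.47, adjusted p 0.033). The gene rhobtb1 fell from 11.8, 9.68 and 14.5 CPM before to 0.394, 1.37 and 0.854 CPM after while its wt means were 12.1 and 14 CPM (interaction -3.90, adjusted p 0.014). The group means of all 12 genes were below 25 CPM. The count moved with single libraries. It was 31 without MZ sphere replicate 2, 33 without replicate 3 and 568 without replicate 1. It was 132, 106 and 89 without MZ 4- to 8-cell replicates 1, 2 and 3, and 114, 294 and 799 without wt sphere replicates 1, 2 and 3. Without wt 4- to 8-cell replicates 1, 2 and 3 it was 256, 134 and 131, and DESeq2 called 1450.

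**Figure D5:**
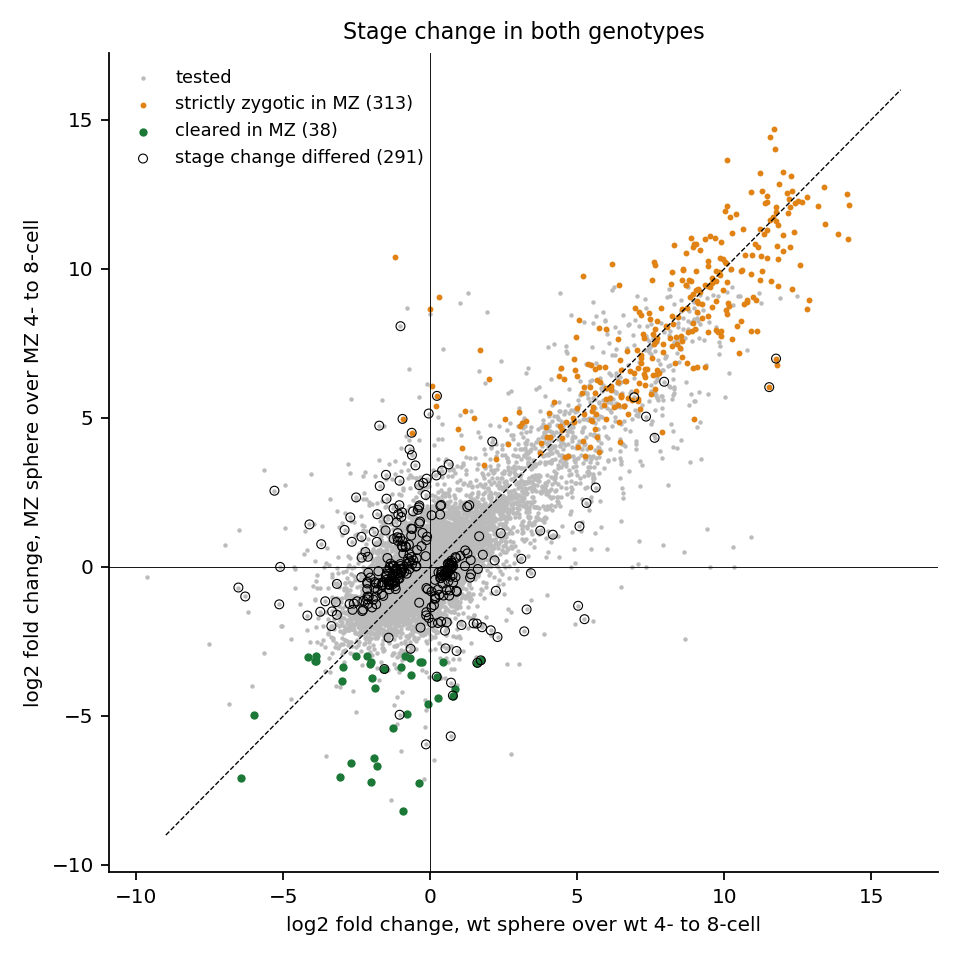
Log2 fold change from the 4- to 8-cell to the sphere stage for 16595 genes, in wt embryos on the horizontal and in MZ embryos on the vertical axis, with equal change on the dashed line. Strictly zygotic genes (orange, 313) lie mostly along the line far to the upper right, cleared genes (green, 38) lie low on the vertical axis over a wide range of wt values, and the 291 genes whose stage change differed (open circles) lie off the line, 150 of them with opposite signs on the axes.

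In TPM, which corrects for length within a library, 9 of the 10 highest at the 4- to 8-cell stage and 7 of the 10 at sphere had no symbol in the tables used. The named ones were rn7sl1, MT-CO1 and rn7sk. The RNA of the signal recognition particle, rn7sl1, stood at 4461 ± 993 TPM before and 7081 ± 352 TPM after (SD, n = 3). At sphere MT-CO1 stood at 4743 ± 797 TPM. The RNA that holds back the elongation factor P-TEFb, rn7sk, stood at 4640.0 ± 449 TPM. RNAs of this kind carry no poly-A tail as a rule, and how they entered these libraries was not tested.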

How the data were processed

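Poly-A RNA of 12 libraries was sequenced as read pairs, 3 for each of wt and MZ smchd1 null embryos at 2 stages. The authors aligned reads with Bowtie and deposited expected counts per gene estimated by RSEM on the zebrafish build danRer10 with Ensembl release 89 genes (Bowtie and RSEM versions are not given in the sources used here). The authors also deposited TPM from the same RSEM run, which corrects for gene length within a library. RSEM divides reads that fit several genes, so that similar copies share an uncertain split.

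Expected counts were rounded and scaled by the trimmed mean of M-values, and genes with a mean scaled count above 10 were tested by edgeR 4.0.16 (R 4.3.3) in 1 fit of the 4 groups. The contrasts were sphere against 4- to 8-cell embryos in each genotype and the difference of these, the interaction. Adjusted p is by Benjamini and Hochberg over all genes tested, and a gene was called under 0.05. The SE of a log2 change was worked back from the same test, as its absolute value over the square root of the F statistic. It restates that test, and for genes with few counts at a stage it is no measure of the precision of the fold. The ribosomal RNA gene zgc:158463 was left out, except in 1 alternative that kept it (3062 higher and 3498 lower in MZ). The deposited TPM were not rescaled without it. DESeq2 1.42.0 and limma 3.58.1 (log2(TPM + 1) and log2(TPM + 0.1)) served as alternatives, with other scalings, filters and each library left out. No label says that libraries of a group stem from different clutches, so p-values speak only for the spread among these libraries, part of which may be technical. MZ and wt embryos had different parents, so that in the interaction genotype cannot be told apart from parentage or egg batch. Counting intervals (95%) and floors of 3 counts cover counting error only.

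The members and the 27 lists were chosen with earlier results of these data known. Symbols were found for 25752 of 31462 gene IDs, and a symbol in capitals does not say which zebrafish copy it is. Named genes were smchd1 and lrif1, the 12 largest increases, the 12 largest decreases and the 6 largest interactions each way. The 10 highest in TPM at each stage were named where they had a symbol. In each list the 8 members with the smallest adjusted p were candidates, with others that complete a pathway. Not all of the 8 are printed, and which of them are was chosen after their values were seen. Largest changes were sought among called genes of at least 5 CPM in the higher group, with a symbol and stages apart. Other members of the lists, among them pou5f3, sox19b, btg4, zar1l, bmp15, zp3b, ybx1, piwil2, ddx4, ythdf2, gsc, dharma, gata5, sox32, tbxta, otx1, otx2b, her1, vox, msx1b, id2a, evpla, cdh1, bbc3 and hoxc10a, were chosen after their values were seen.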

Additional observations from a re-analysis of the deposited data

Results flagged for a closer look

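The stage change differed between MZ and wt embryos for 291 genes, by the edgeR interaction test. Of those described above, the difference was -3.30 for BMP2 (adjusted p 0.0025), -1.46 for gdf3 (adjusted p 0.0023), -3.90 for rhobtb1 (adjusted p 0.014), -5.09 for fbxo41 (adjusted p 0.048), 0.63 for setdb1a (adjusted p 0.04), 6.47 for trpm6 (adjusted p 0.033) and 7.86 for TSPAN18 (adjusted p 0.0091), each as the log2 change in MZ minus that in wt. The number of such genes was 31 without MZ sphere replicate 2. How the single differences listed here moved when a library was left out is not given. The ribosomal RNA gene that was left out of the main tests took 1.56 ± 2.09% of the counts in MZ sphere libraries and 0.0601 ± 0.0518% in MZ 4- to 8-cell libraries (SD, n = 3), and 1 library, MZ sphere replicate 1, held most of it.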

How the results depend on the processing

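Counts of called genes in the MZ comparison stayed within 1.5 times under other size factors, other filters, DESeq2 and the 6 MZ libraries alone, with the exceptions given here. On log2(TPM + 1) 1875 genes were higher and 6761 lower, 1210 and 2556 by over 2-fold. On log2(TPM + 0.1) 1858 were higher and 6656 lower, 3105 lower by over 2-fold. With a mean count above 50 the number over 2-fold higher was 1147, out of fewer genes tested. Without 1 library at a time, 2314 to 2817 genes were higher and 2579 to 3096 lower, 1604 to 1853 and 1212 to 1518 by over 2-fold. Strictly zygotic genes numbered 298 to 337 and cleared genes 26 to 56, and a limit of 4-fold gave 191 cleared genes. Genes whose stage change differed from wt numbered 1450 by DESeq2 and 31 to 799 without 1 library at a time (31 without MZ sphere replicate 2, 799 without wt sphere replicate 3). The cause of these shifts was not tested.

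Genes that had not passed turned in direction. On log2(TPM + 1) and log2(TPM + 0.1) cdh1 stood at -0.331 on both and ddx4 at -0.303 and -0.306. With upper-quartile factors sox19b stood at 0.033, hoxc10a at 0.062, HMGB3 (ENSDARG00000006408) at 0.118 and mcm6 (ENSDARG00000033231) at 0.087. By DESeq2 hoxc10a stood at 0.0099, HMGB3 at 0.066 and mcm6 at 0.035, and with its size factors in edgeR HMGB3 stood at 0.055 and mcm6 at 0.024. Without 1 library at a time hoxc10a ranged from -0.336 to 0.128, HMGB3 from -0.068 to 0.082 and mcm6 from -0.111 to 0.035. In the MZ stage comparison no gene named as called turned in direction, which does not cover the interactions. The calls of pou5f3, ezh2 and pcdh2ab8 were lost on both TPM scales, where sox19b, h1m, CYP11A1 and the last HMGB3 and mcm6 IDs were called lower.

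Replicate numbers are shared between groups, and no label says whether they pair libraries. Deviations of same-numbered MZ libraries correlated at -0.066, -0.028 and -0.024. These values show no shared deviation, but with 3 libraries a stage they cannot exclude a pairing. With the replicate number as a block 3026 genes were higher and 3439 lower, and 213 differed from wt (125 higher, 88 lower). The planned search for promoter motifs was not run, as no promoter sequences were used here. Depth limits scarce genes, for which 3 counts over the 3 libraries of 4- to 8-cell embryos equal 0.055 CPM.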

Other observations

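Several pairs of gene IDs that share a name held a member that was scarce before and a member that was abundant before in MZ embryos. The scarce member rose in each pair, while the abundant member rose less or did not pass. Of the scarce members only that of mcm6 belonged to the strictly zygotic genes. The pairs were chosen after their values were seen, and reads of similar copies may have been split between their members. Of the IDs named SOX11, a factor of neural progenitors, ENSDARG00000077811 stood at 2.78, 1.59 and 2.93 CPM before and 355, 253 and 182 CPM after (log2 change 6.75, SE 0.42, adjusted p 3.5e-07), and ENSDARG00000095743 at 458, 454 and 501 CPM before and 931, 855 and 767 CPM after (log2 change 0.85, SE 0.12, adjusted p 0.00022). Of those named HMGB3, a chromatin protein, ENSDARG00000056725 stood at 4.54, 2.72 and 4.63 CPM before and 48.2, 65.7 and 46.5 CPM after (log2 change 3.75, SE 0.37, adjusted p 1.3e-05). Its partner ENSDARG00000006408 stood at 264, 264 and 243 CPM before and 220.1, 274 and 269 CPM after, overlapped between stages and did not pass. The second mcm6 ID, ENSDARG00000033231, stood at 299, 262 and 251 CPM before and 237, 264 and 288 CPM after and did not pass either.

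Linker histones and a nuclear RNA were also chosen after their values were seen. The linker histone h1l1 rose from 27.6, 38.5 and 32.9 CPM before to 601, 565 and 447 CPM after (log2 change 4.03, SE 0.31, adjusted p 2.1e-06). The maternal linker histone h1m stood at 1163, 1013 and 992 CPM before and 812, 906 and 982 CPM after and did not pass (adjusted p 0.1), though its stages did not overlap. The long non-coding RNA malat1 rose from 51.5, 16.4 and 64.4 CPM before to 1201, 959 and 695 CPM after (log2 change 4.43, SE 0.51, adjusted p 4.2e-05), with replicate 2 the lowest before.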
